A study of Mus musculus with 8 samples.

Results

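Atp2a2 encodes SERCA2, the calcium pump of the sarcoplasmic reticulum. It was examined here as a stretch of chromosome 5 from 122900001 to 122960000 (mouse genome build mm9), minus strand, which is 60 kb long. The stretch was chosen with its signal known, so its level is given as a description and without a test. It is 1 of 76854 windows of this length, counted over both strands of the genome, with a cDNA in either replicate. It held 973 of the 769652 positions listed for replicate 1 of the SRSF3 iCLIP experiment and 2423 of the 2093525 listed for replicate 2.

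Both replicates came from cardiomyocytes of C57BL/6 mice taken at P0 or P1. The cells received 15 µg of modified mRNA for SRSF3 fused to green fluorescent protein (GFP) with 21 µL of Lipofectamine 2000. UV light of 254 nm (100 mJ) was applied 48 h after transfection. RNA cut by RNase I to lengths between 80 and 200 nt was pulled down through the GFP tag. The bound protein was thus a tagged SRSF3 made from transfected mRNA. The series also holds 3 hearts of adult SRSF3flox/flox;alphaMHC-CreERT2 mice and 3 of adult alphaMHC-CreERT2 mice, all given 4-hydroxytamoxifen. These hearts are not analysed here. Whether the replicates were separate cultures is not in the labels. The headers of both tracks carry the same library identifier and replicate number and differ in the experiment number, 1 or 2, so the SD between them may be technical. A p-value here therefore sets 2 libraries against each other and covers counting error only.

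SERCA2 pumps calcium from the cytosol back into the sarcoplasmic reticulum after each beat, which lets the muscle relax and refills the store for the next contraction. Phospholamban holds the pump back until it is phosphorylated. The gene makes a muscle form, SERCA2a, and a form found in most tissues, SERCA2b, by different processing at the 3′ end of the transcript. SRSF3 belongs to the SR proteins, which bind nascent transcripts and mRNA and act in splicing and export. In iCLIP, UV light links the protein to RNA in living cells, and each cDNA marks the place next to a crosslinked nucleotide.

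The coding ends of the SERCA2a and SERCA2b transcripts are shown because the 3′ side of the stretch, where these ends are made, held most of the cDNAs. They come from the GENCODE M21 transcript models of Atp2a2 (ENSMUSG00000029467.15), which are on another build, GRCm38. The reading frames are identical over their first 2983 nt. The last 30 of these are in lower case, and capitals mark what each transcript adds. Atp2a2-202 adds 14 nt including its stop codon, and Atp2a2-201 adds 152 nt, of which the first 45 are shown.
Atp2a2-202, the shorter frame, SERCA2a: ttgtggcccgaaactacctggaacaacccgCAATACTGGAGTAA
Atp2a2-201, the longer frame, SERCA2b: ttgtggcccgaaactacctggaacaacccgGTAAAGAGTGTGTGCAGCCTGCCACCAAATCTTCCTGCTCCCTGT
No genome or gene annotation of mm9 was used here, so no cDNA was assigned to either end, to an exon or to an intron, and the cell type markers were not read.

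The Atp2a2 stretch was among the strongest of its length. It held 1023 cDNAs in replicate 1 and 2765 in replicate 2. Per 1000000 cDNAs of the library (CPM) this was 1255 in replicate 1 (exact Poisson 95% interval 1179 to 1334) and 1227 in replicate 2 (1182 to 1273), with a mean of 1241 ± 19.6 CPM (SD, n = 2). By the mean it ranked 23 among the windows of its length, 22 in replicate 1 and 24 in replicate 2. The windows were cut at fixed steps and can split other genes, so the rank describes this grid. The libraries held 815414 and 2253688 cDNAs. The tracks carry neither a control precipitation nor a measure of RNA abundance, so a high count cannot be told apart from an abundant RNA.

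The signal lay on the strand that carries Atp2a2. The opposite strand of the same stretch had 14 cDNAs in replicate 1 and 36 in replicate 2, which was 1.35% (Wilson 95% interval 0.806% to 2.25%) and 1.29% (0.930% to 1.77%) of the cDNAs on both strands. The next 60 kb upstream on the minus strand held 39.4 ± 1.98 CPM and the next 60 kb downstream 34.9 ± 0.989 CPM (SD, n = 2 for each). These levels, and the 16.6 ± 0.845 CPM of the opposite strand, are the nearest to a background that the tracks give. The downstream level includes signal that goes on past the stretch. Of its 29 cDNAs in replicate 1 and 77 in replicate 2, 10 and 32 lay in the 2000 nt next to the stretch.

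cDNAs covered the transcript from end to end. Of the 120 bins of 500 nt, 105 had a cDNA in both replicates and 12 had none in either. The middle 95% of the replicates' cDNAs ran from 122901968 to 122951888, over 49921 nt, and touched 101 bins. Their mean signal over the replicates ranged from 2.61 to 48.8 CPM with a median of 8.40 CPM. Neighbouring positions of the pooled replicates in this span were 6 nt apart at the median. Its longest stretch without a cDNA of either replicate was 364 nt, from 122939362 to 122939725. In the GENCODE models, by comparison, exons make up 8.23% of the span of Atp2a2-202 and 9.78% of that of Atp2a2-201, and the longest intron has 15947 nt.

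The signal started sharply at the 5′ end. From the high-coordinate end of the stretch downward, the first 7713 nt held 2 cDNAs in replicate 1 and 3 in replicate 2. Dense coverage began at 122952287. From 122952200 to 122952299 replicate 1 had 4 cDNAs and replicate 2 had 12, and over the next 100 nt upstream neither had any. On the 3′ side the counts stepped down at 122903501. The bin above that point held 21 and 52 cDNAs in replicates 1 and 2, and the bin below it held 5 and 20. In steps of 100 nt, the counts were still low from 122903501 to 122903600, with 1 and 5 cDNAs. They were 4 and 10 from 122903601 to 122903700, and 8 and 12 from 122903701 to 122903800. The edges were placed after the profile was seen, the 3′ one at a bin border. The distance between them, 48787 nt, takes the bin border as the 3′ edge, and the finer counts do not place the edge there. The Atp2a2 gene has a length of 48713 nt in GENCODE M21, and no coordinate was carried between the builds.

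**Figure D1:**
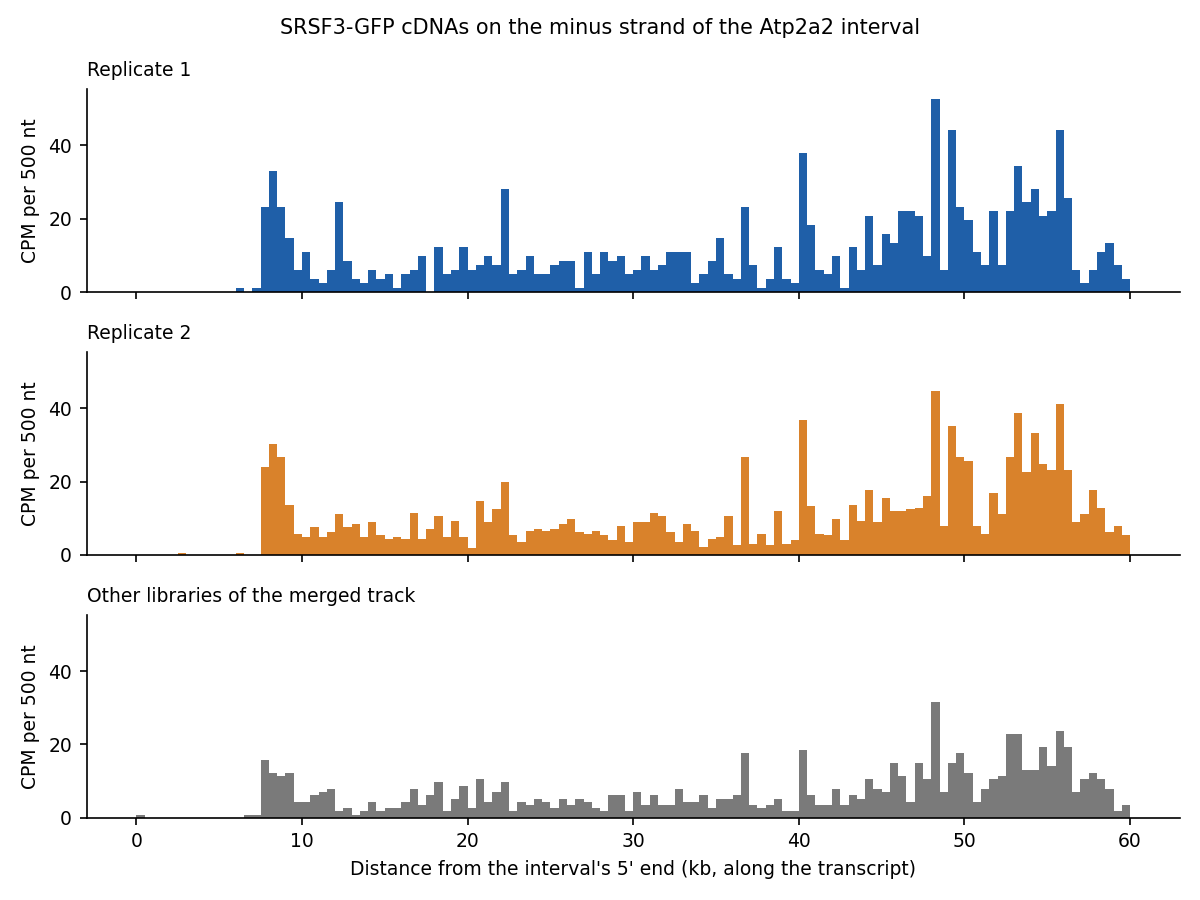
SRSF3-GFP CPM (vertical axis) in each 500 nt bin of the Atp2a2 stretch, for replicate 1, replicate 2 and the other libraries of the merged track. The horizontal axis runs along the transcript in kb from the 5′ end of the stretch. Coverage begins at about 8 kb and stays low through the middle. The tallest bins lie between 40 and 57 kb with low bins between them, and the highest has 48.8 CPM as the mean of the replicates.

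From 5′ to 3′, the transcript had a short rise at its start, a long low middle and a high 3′ part. The first 3 densely covered bins, from 122951001 to 122952500, held 19, 27 and 19 cDNAs in replicate 1 and 60, 68 and 54 in replicate 2, in order of coordinate. The strongest of them, 122951501 to 122952000, had 31.6 ± 2.08 CPM (SD, n = 2). Coverage then fell: the bin from 122950001 to 122950500 held 5 cDNAs in replicate 1 and 13 in replicate 2. The start of the transcript thus stood above the stretch that followed it in both libraries.

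The middle of the transcript was covered thinly on average, and its bins varied from 3.17 to 25.0 CPM as the mean of the replicates. Between 122920001 and 122940000 replicate 1 had 16.1 CPM per kb and replicate 2 had 14.9, a mean of 15.5 ± 0.802 (SD, n = 2). A single bin rose out of this stretch on its 5′ side, 122937501 to 122938000, with 23 cDNAs in replicate 1 and 45 in replicate 2. This bin was singled out after its values were seen. At the other side, the bin from 122923001 to 122923500 held 19 and 60 cDNAs, or 25.0 ± 2.35 CPM (SD, n = 2). Its neighbours at 122922501 and 122923501 held 6 and 3 cDNAs in replicate 1 and 7 and 6 in replicate 2, so this rise was narrow.

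The 3′ part was the most densely covered. The 20 kb from 122900001 to 122920000 held 55.4% of the cDNAs of replicate 1 (Wilson 95% interval 52.4% to 58.4%) and 56.3% of those of replicate 2 (54.5% to 58.1%). Its density was 34.7 ± 0.159 CPM per kb, against 15.5 ± 0.802 in the middle 20 kb and 11.9 ± 0.0186 in the 20 kb at the 5′ side (SD, n = 2 for each). The 5′ value includes the nearly empty bases upstream of the edge. The gaps between these means exceeded the spread between the replicates, and they were not tested. In the GENCODE model of Atp2a2-202, 16 of the 21 exons lie 3′ of the gene's midpoint, and in Atp2a2-201 it is 15 of 20. That part of the gene differs in extent from the 20 kb, and a relation of exons to the signal was not tested.

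The strongest bins were largely shared by the replicates. By the lower of the 2 replicate values, the first was 122911501 to 122912000, with 43 cDNAs in replicate 1, 101 in replicate 2 and 48.8 ± 5.60 CPM (SD, n = 2). The second was 122904001 to 122904500, near the 3′ edge, with 36 and 93 cDNAs and 42.7 ± 2.04 CPM. The order of the first 2 depended on where bins began: with bins shifted by 250 nt, the highest was 122903751 to 122904250, with 37 and 94 cDNAs and a mean of 43.5 CPM. Then came 122919501 to 122920000, with 31 and 83 cDNAs and 37.4 ± 0.841 CPM, at the border of the 3′ 20 kb. Toward the 3′ end the signal fell again, to 5.95 CPM at 122918501 and 2.61 CPM at 122917001 (start of each bin, mean of the replicates). The 5 kb from 122915001 to 122920000 had 25.0 ± 0.0573 CPM per kb, against 42.6 ± 5.00 from 122910001 to 122915000 (SD, n = 2 for each).

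Of the 10 strongest bins by this rule, 7 lay in the 3′ 20 kb. The rest of these were 122910501 with 39.6 ± 6.43 CPM, 122906501 with 36.5 ± 3.02, 122905501 with 30.7 ± 3.59 and 122910001 with 25.0 ± 2.35 (start of each bin, SD, n = 2). The remaining 3 of the 10 were 122951501 and 122951001 at the 5′ start and the narrow bin at 122923001. At the limit of the list, 4 bins tied at 23.3 CPM in their lower replicate, and the next bin had 23.1. Of the tied bins, 122952001 at the 5′ start, with 19 and 54 cDNAs, fell outside the list by order of coordinate alone. Together the 10 bins, 8.33% of the length, held a similar share in both replicates, 27.5% in the first and 27.7% in the other. When each library ranked its own bins, 7 bins were in the first 10 of both replicates.

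Signal went on past the 3′ step at a lower level. The 3500 nt between it and the end of the stretch held 41 cDNAs of replicate 1, 4.01% of its total there, and 158 of replicate 2, 5.71%. Beyond the stretch, the next 2000 nt held 10 and 32 cDNAs. From 122897001 to 122898000 the counts were 2 and 1, so coverage faded about 2 kb outside the stretch as it was defined.

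**Figure D2:**
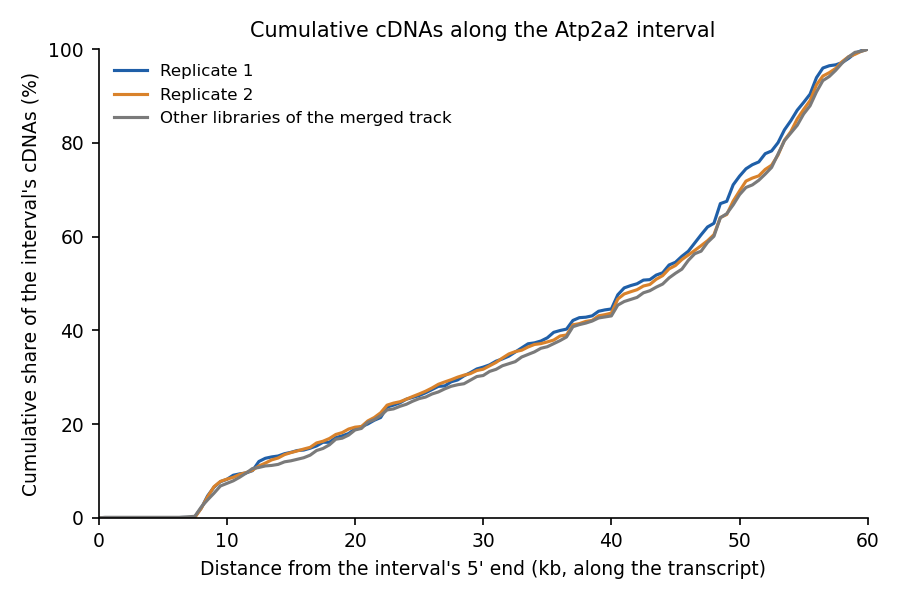
Cumulative share of the cDNAs of the stretch (percent, vertical axis) along the transcript in kb from the 5′ end of the stretch (horizontal axis), 1 line for each library. The lines steepen toward the 3′ end. They run close together, with at most 3.47 percentage points between the replicates and 4.36 between replicate 1 and the other libraries.

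The shape of the profile was shared. The running share of cDNAs from the 5′ end differed by at most 3.47 percentage points between the replicates at any bin border. Replicate 1 reached 50% of its cDNAs within 42.5 kb of the 5′ end of the stretch and replicate 2 within 43.5 kb. Across the 120 bins, the replicates' log2(cDNAs + 1) correlated with r = 0.874 (Pearson) and rho = 0.797 (Spearman). This describes bins of 1 transcript, which are not independent, and the empty bins upstream of the start raise it: over the 106 bins from the low end up to 122953000, r was 0.739 and rho 0.710.

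**Figure D3:**
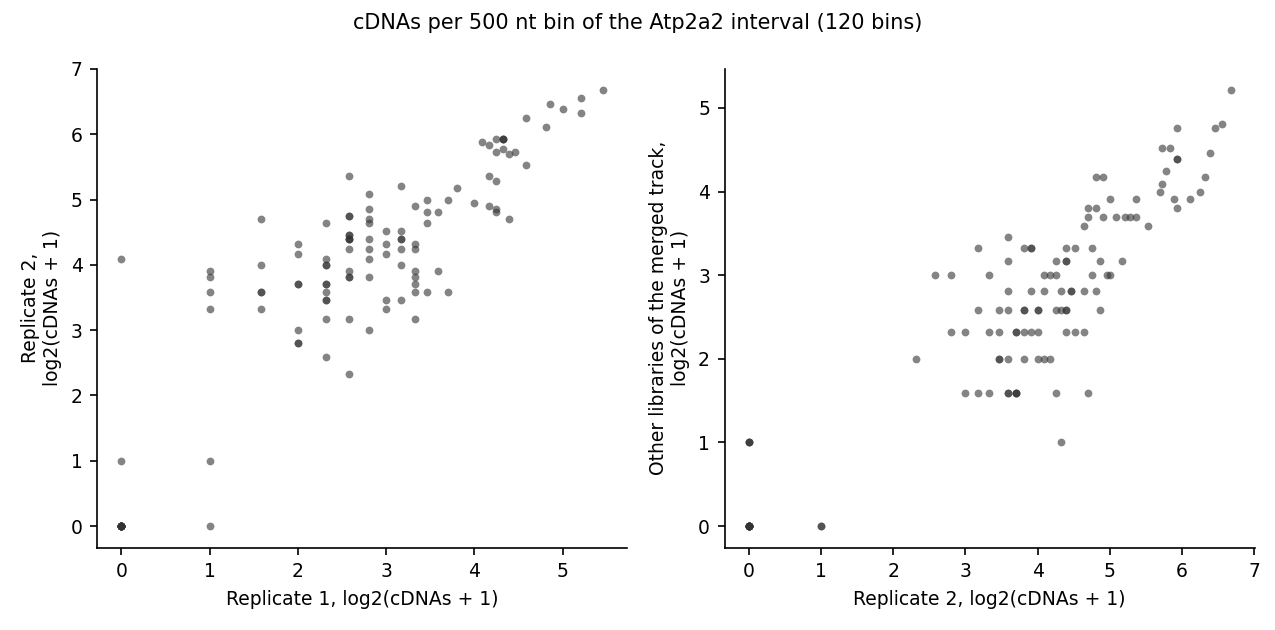
Each point is a 500 nt bin of the stretch, on log2(cDNAs + 1) axes, with replicate 1 against replicate 2 on the left and replicate 2 against the other libraries of the merged track on the right. Over the 120 bins Pearson r was 0.874 on the left and 0.892 on the right. Over the 106 bins from the low end up to 122953000, it was 0.739 and 0.771.

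No part of the Atp2a2 profile was found to differ between the replicates. Over the whole stretch the log2 ratio of replicate 1 to replicate 2 was 0.03 (95% interval -0.07 to 0.14, adjusted p = 1, exact binomial test, adjusted by Benjamini-Hochberg over 12572 windows). Of all these windows 0.103% differed at a 5% false discovery rate, and 5.59% had an unadjusted p under 0.05. Of the 71 bins of 500 nt with at least 20 cDNAs, 0 differed, where 0.273% of 9533 such bins of the genome did. At an unadjusted p under 0.05 there were 5 of the 71 bins, 7.04%, against 5.51% of all bins. The lowest adjusted p among the 71 was 0.632 (exact binomial test). The median log2 ratio of the 71 bins was 0.03, beside 0.05 over all bins tested, with 37 above 0 and 34 below. Depth limits this comparison: a difference of severalfold in a single bin can go uncalled, so a count of 0 does not show that the bins were alike.

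The merged track sums 5 libraries. Taking both replicates away from it leaves 912 cDNAs on the Atp2a2 stretch, from 3 libraries whose groups the labels do not give. Their level was 801 CPM, below the 1234 CPM of the pooled replicates (log2 ratio -0.62, 95% interval -0.73 to -0.52, adjusted p = 2.50e-32, exact binomial test). Of 14987 windows of this length 42.4% differed in this comparison, 23.6% being higher and 18.8% lower in these libraries. Of 86 Atp2a2 bins, 8 were lower in them and 0 higher at an adjusted p under 0.05, where 14.5% of 16504 bins of the genome differed, 7.28% being higher and 7.19% lower. The strongest of the 8 differences was at 122947501, with 20 and 25 cDNAs in the replicates and 2 in these libraries (log2 ratio -3.06, adjusted p = 0.00188, exact binomial test). The test compares pools of libraries, not conditions. By CPM the stretch ranked 18 among the 54140 windows with a cDNA in these libraries, and 23 of 76854 by the replicates' mean.

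Most positions held a single cDNA, but a smaller share of them than over the whole series. Of the 973 positions of replicate 1, 931 had a single cDNA and 35 had 2, and the highest had 4. In replicate 2, 2140 positions had a single cDNA, 239 had 2, and the highest had 6. The position with the most cDNAs was 122911757, with 3 in replicate 1 and 6 in replicate 2. The positions 122952050, at the 5′ start, 122923265, in the narrow bin, and 122905915 each held 1 and 6. At 122919510 there were 1 and 4, a total that 3 positions shared.

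The highest short maxima of the stretch are listed as a description. They were taken as the 31 nt windows with the highest summed CPM of both replicates within the middle 95%, with at least 50 nt between windows. The first was 122905915 to 122905945, with 9 cDNAs in replicate 1, 32 in replicate 2 and 12.6 ± 2.24 CPM (SD, n = 2). The second, 122911753 to 122911783, had 12 and 19 cDNAs and 11.6 ± 4.44 CPM, and it holds the position with the most cDNAs. The third, 122923263 to 122923293, had 8 and 23 cDNAs and 10.0 ± 0.279 CPM, and it lies in the narrow rise at the end of the middle. The fourth, 122919636 to 122919666, had 8 and 17 cDNAs. The remaining 6 of the 10 had between 4 and 8 cDNAs in replicate 1 and between 11 and 21 in replicate 2. All 10 lay between 122904019 and 122923293. The search ended at 122951888, so the outermost bases of the 5′ start, with the position 122952050, were not searched.

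**Figure D4:**
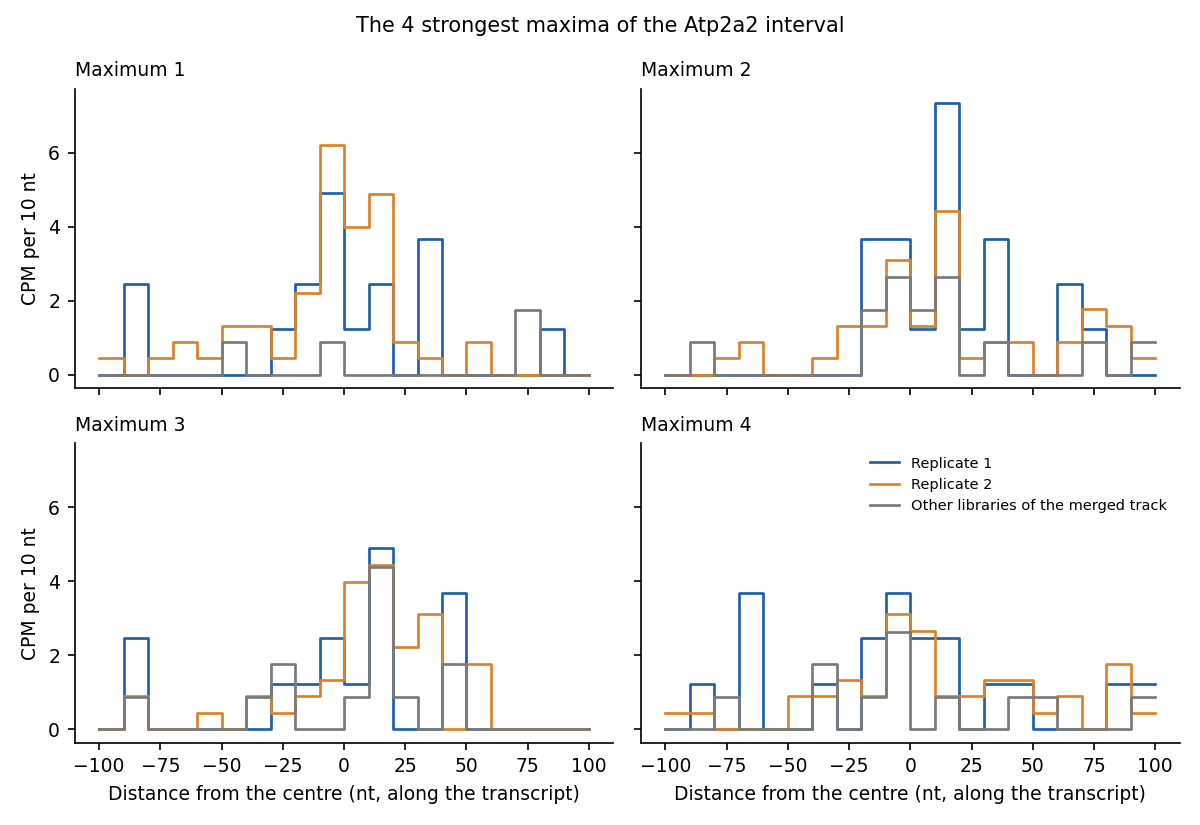
CPM in steps of 10 nt (vertical axis) within 100 nt of the centre of each of the 4 strongest maxima, along the transcript (horizontal axis, nt), for replicate 1, replicate 2 and the other libraries of the merged track. The first maximum held 9 and 32 cDNAs in the replicates and 1 in the other libraries, while the second held 12, 19 and 9.

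Maxima chosen in one library were raised in the other relative to the rest of the middle span. The 10 windows chosen on both replicates covered 310 nt, 0.621% of the middle span, with 7.14% of the cDNAs in replicate 1 and 6.69% in replicate 2. Their choice used these counts. Read in a library that did not choose them, the 10 maxima of replicate 2 held 5.28% of the cDNAs of replicate 1 (Wilson 95% interval 4.07% to 6.82%), at 9.47 times the density of the remaining middle span. The 10 maxima of replicate 1 held 4.45% of the cDNAs of replicate 2 (3.74% to 5.28%), at 7.85 times that density. The remaining span includes the thinly covered middle, and no density near the windows was computed. These ratios therefore do not separate short maxima from the broad 3′ rise. All 10 windows had a cDNA in the other replicate in either direction. Windows placed elsewhere in the same bins were not counted, so this alone does not show recurrence. Only 4 of the 10 maxima of replicate 1 had a centre within 31 nt of a maximum of replicate 2, so the exact choice differed between libraries.

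Positions recurred between the replicates more often than even placement within bins would give. Of the 973 positions of replicate 1, 142 were also listed in replicate 2, which is 14.6% (Wilson 95% interval 12.5% to 17.0%). The number of replicate 2 positions in each 500 nt bin, placed evenly, would give 6.95%, so the observed share was 2.10 times as high. The same ratio over all nuclear positions of the genome was 2.20. Positions with 2 cDNAs in replicate 1 recurred in 11 of 35 cases. Within 5 nt, 60.3% of the positions had a replicate 2 neighbour. No share by density was computed for this distance, so it does not measure agreement beyond density. At 51 to 100 nt there were still 71.3 pairs per distance, against 142 at the same nucleotide.

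The Atp2a2 bins were set beside bins of the rest of the genome with like density. In bins with 1 to 14 replicate 2 positions, 4.46% of the Atp2a2 positions of replicate 1 recurred (9 of 202, Wilson 95% interval 2.36% to 8.25%), and 2.63% elsewhere. In bins with 15 to 29 such positions the share was 13.4% (39 of 292, 9.93% to 17.7%), and 12.4% elsewhere. In bins with 30 to 83, it was 19.7% (94 of 478, 16.4% to 23.5%), and 23.8% elsewhere. Relative to even placement within bins, the Atp2a2 shares were 2.15, 3.10 and 1.85 times as high, from the thinnest to the densest bins. Elsewhere the ratios were 3.28, 3.05 and 2.46. These differences were not tested.

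**Figure D5:**
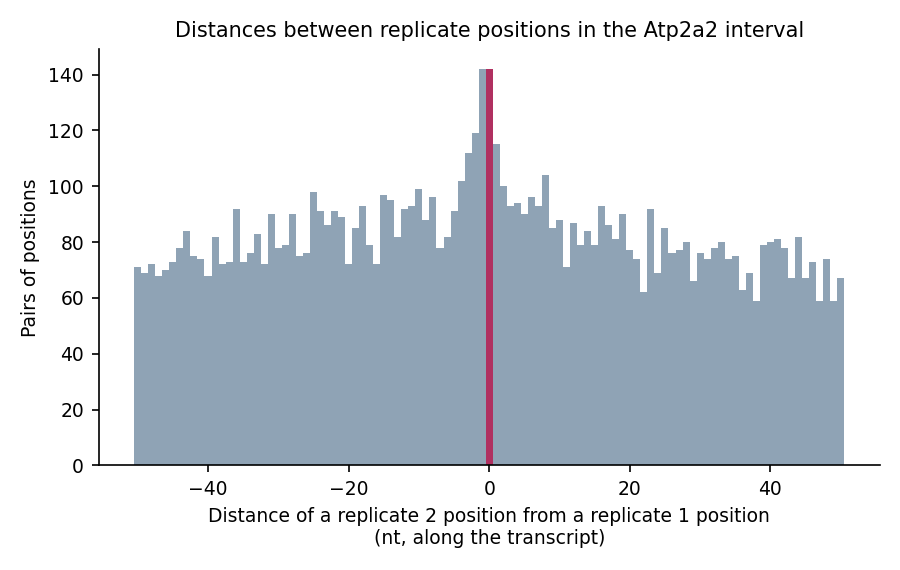
Number of pairs of a replicate 1 and a replicate 2 position of the stretch (vertical axis) by their distance in nt along the transcript (horizontal axis, negative toward the 5′ end). The bar at 0 and the bar 1 nt upstream both reach 142 pairs, and the mean over distances of 11 to 20 nt was 84.3.

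Replicate positions clustered within a few nucleotides of each other. There were 142 pairs at the same nucleotide and also 142 with the replicate 2 position 1 nt upstream, against 115 with it 1 nt downstream. The mean per distance fell to 97 at 3 to 5 nt, 84.3 at 11 to 20 nt and 71.3 at 51 to 100 nt. The peak therefore spanned a few nucleotides and did not single out the identical position.

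Compared with the 24 other nuclear windows of its length whose mean CPM lay within 1.5 times its own, the Atp2a2 stretch was neither the most even nor the most peaked. Its 10 fullest bins held 28.2% of the cDNAs in replicate 1 and 27.7% in replicate 2, where the others had medians of 24.2% and 24.0% and 10 of the 24 lay above it in each replicate. Its fullest position held 0.391% and 0.217%, beside medians of 0.426% and 0.216%. These values are a description of the grid and were not tested.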

How the data were processed

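The authors' deposited iCLIP tracks give a signed score for every listed nucleotide. Its size is the number of cDNAs, unscaled, and its sign tells the strand, per the file headers. The headers name mm9 and Ensembl 59, and the submitters' processing notes name Bowtie 0.10.1. For duplicates and reads with several matches, the handling is not given in the sources. The merged track sums 5 libraries, of which 3 are not the replicates. Its excess over the replicates is called the other libraries.

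The stretch, its rule and the lists were chosen with earlier results of these data known. Counts were divided by library totals (CPM). Differences were tested with two-sided exact binomial tests against these totals, Benjamini-Hochberg adjusted over all windows of 60 kb with at least 50 cDNAs or all 500 nt bins with at least 20. Named were the 10 strongest bins by the lower replicate, 10 maxima of 31 nt and the 5 fullest positions. Edges, windows of like signal and density classes were added after the profile was seen. A count of 0 allows 3 cDNAs, 3.68 CPM in replicate 1 and 1.33 in replicate 2. Intervals cover counting error only. The tests were tested on simulated data. Python 3.11.15 and SciPy 1.17.1 were used. Calcium handling genes and cell type markers were not read without an mm9 annotation.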

Additional observations from a re-analysis of the deposited data

Results flagged for a closer look

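The merged track held 912 cDNAs on the Atp2a2 stretch that are in neither replicate, a signal outside the 2 samples with labels. They come from 3 libraries named in its header, at 801 CPM. The median log2 ratio to the replicates over the 86 bins tested was -0.67, beside -0.42 over all bins tested. Over all 60 kb windows tested the median was 0.01, beside -0.62 for Atp2a2, and 18.8% of them had a lower ratio.

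Along the transcript the other libraries had much the same shape. Their 3′ 20 kb held 56.9% of their cDNAs (Wilson 95% interval 53.7% to 60.1%). Their running share stayed within 2.15 percentage points of replicate 2 and within 4.36 of replicate 1. Pearson r over the 120 bins was 0.892 with replicate 2 and 0.826 with replicate 1. Over the 106 bins from the low end up to 122953000, it was 0.771 and 0.661. Of the 10 strongest bins named above, 6 were among the first 10 of the other libraries and 9 among their first 20. The 10 maxima chosen on the replicates held 4.39% of their cDNAs (3.24% to 5.92%). This was 7.83 times the density of the rest of the middle span, thinly covered parts included. The strongest maximum, 122905915 to 122905945, had 1 cDNA there against 41 in the replicates, while the second had 9 against 31. The cause of the lower level was not tested.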

How the results depend on the processing

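No paired analysis was possible because the iCLIP samples form a single group and the heart samples, which share numbers, are not analysed here. The mean signal of 1241 CPM became 1298 with totals that left out the mitochondrial genome and the 10 strongest 10 kb windows, 1177 over the middle 95% of cDNAs and 1211 by distinct positions, and it was 1227 to 1255 with each replicate left out. The correlation between replicates over bins was 0.798 with 250 nt bins, 0.952 with 1000 nt bins and 0.767 without bins empty in both replicates. Shared positions rose from 14.6% to 31.8% within 1 nt, 60.3% within 5 nt and 30.95% for positions with at least 2 cDNAs. A wider distance takes in more positions by density alone, and no share by density was computed for 1 or 5 nt. The density ratio at the 10 maxima, against the whole remaining middle span, was 12.6 as the mean of both replicates. It was 20.9 with windows of 11 nt and 9.18 with 61 nt. For maxima read in the replicate that did not choose them it was 9.47 and 7.85, and in the other libraries 7.83. The count of bins differing between replicates was 0 under all 6 alternatives of bin size, shift and minimum, with 0 to 7 bins at an unadjusted p under 0.05. Between the replicates, the log2 ratio over the whole stretch was 0.03 and 0.04 with the other totals and 0.13 by distinct positions. By distinct positions the unadjusted p was 0.0213 and the adjusted p was 0.853 (exact binomial test). The log2 ratio of the other libraries ranged from -0.65 to -0.55 and kept its call. With each replicate left out the highest bin had 44.8 to 52.7 CPM, and with bins shifted by 250 nt another bin was highest, at 43.5 CPM. With each replicate left out the opposite strand held 1.29% to 1.35%.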

Other observations

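Near the 3′ step, the bins 122902501 and 122902001 had an unadjusted p under 0.05 between the replicates in the same direction. Replicate 1 held 2 and 5 cDNAs there and replicate 2 held 25 and 40, and neither bin passed the adjustment (adjusted p = 0.754 and 0.747, exact binomial test). The bin directly past the step, 122903001, held 5 and 20 cDNAs (unadjusted p = 0.651, exact binomial test). In the other direction, the bin from 122947501 to 122948000 held 20 cDNAs in replicate 1 and 25 in replicate 2, with 2 in the other libraries (adjusted p = 0.669 between the replicates, exact binomial test). These bins were picked after their values were seen.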
